A study of Rattus norvegicus with 12 samples.

Results

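The genes of voltage-gated calcium channels and of calcium release, uptake and extrusion were followed in rat dorsal root ganglia over the first hours after the sciatic nerve had been severed. They were chosen by gene name on the array. The names are those of the pore (Cacna1), alpha2delta (Cacna2d), beta (Cacnb) and gamma (Cacng) genes of the channels, the inositol trisphosphate receptors Itpr1, Itpr2 and Itpr3, the ryanodine receptors Ryr2 and Ryr3, the store pumps Atp2a2 and Atp2a3, the plasma membrane pumps Atp2b1 to Atp2b4, and Stim1, Stim2, Orai1 and Orai3. This gave 40 genes of 35287 gene names on the array. A probe was kept where every array of some time read it well above background. The brightest kept probe, by its mean signal on all 12 arrays, stands for its gene. Of the 40 genes, 36 passed, out of 29623 genes tested. Cacna1f and Cacna2d4 were dim on every array. Cacng5 was well above background on 2 of 3 arrays at 3 h and 1 each at 6 h and 9 h, and Atp2b4 on 1 array each at 3, 6 and 9 h. Cacna1s and Orai2 were not analysed here.

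The samples were L4 to L6 ganglia of male Sprague-Dawley rats of 180 to 220 g, taken 0.5, 3, 6 or 9 h after a 1 cm piece of the left sciatic nerve had been resected at mid-thigh. The study used 24 rats, 6 per time according to the labels, and 3 arrays per time. The age of the rats and the number of rats behind an array are not given, so p-values measure the spread between these arrays, which may be technical. Every group had the resection. The labels name no uninjured rats, and later times were compared with 0.5 h.

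Calcium enters neurons through voltage-gated channels, whose pore subunit carries the current while beta and alpha2delta subunits set how many channels reach the membrane and how they gate. N-type channels at the central terminals of sensory neurons trigger transmitter release, and T-type channels govern the excitability of the cell bodies. Inside the cell, ryanodine and inositol trisphosphate receptors release calcium from the endoplasmic reticulum, SERCA pumps refill it, the sensors STIM1 and STIM2 open ORAI channels when it empties, and plasma membrane pumps push calcium out of the cell.

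Levels are log2 signals relative to the 75th percentile of the same array, so 0 is that percentile, and levels of different probes are not comparable. All 15 neuronal markers measured were well above background on all 12 arrays, and their summed signal, in units of each array's 75th percentile, was 1160 to 1255 at 0.5 h, 1100 to 1237 at 3 h, 1041 to 1100 at 6 h and 1183 to 1225 at 9 h. The arrays lay on 5 slides, and no slide held arrays of more than 1 time. Those of 0.5, 3 and 9 h each lay on 1 slide, and those of 6 h on slides 3 (array 1) and 4 (arrays 2 and 3). Slide and time thus cannot be told apart in any comparison between times. The arrays were scanned on 3 days, the 0.5 h arrays on the first, those of 3 and 6 h on the second and those of 9 h on the third. Scan day and time can therefore be told apart only between 3 and 6 h. Of all probes, the arrays of 3, 6 and 9 h read 82.3 to 85.3% well above background, and those of 0.5 h 63.2 to 67.5%. Median local background was 86, 82 and 64 for 0.5 h replicates 1, 2 and 3, while every later array had 37 to 45. The lowest level read as well above background was -5.07 to -4.71 at 0.5 h, against -7.55 to -6.87 at later times. A level below -5.07 was thus dim at 0.5 h but could be well above background later. Being dim at 0.5 h does not by itself show lower expression. The tissue was bulk ganglion, in which fewer cells of a type and less RNA per cell cannot be told apart.

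Of the 36 genes, 13 passed the test in at least 1 of 5 comparisons between times (limma, adjusted p under 0.05 over all genes), with 20 calls in all, and 23 passed in none. At 3 h against 0.5 h, 3 genes (8.33%) rose and 0 fell, while 23.2% of all genes were called, 10.7% higher and 12.5% lower. At 6 h against 0.5 h only Atp2b1 passed, and it fell, while 13.4% of all genes were called, 4.01% higher and 9.43% lower. At 9 h against 0.5 h, 5 rose and 2 fell (19.4% together), and 33.3% of all genes were called, 22.4% higher and 10.9% lower. Among the 5, Cacna1g and Cacng6 were dim on all 0.5 h arrays and were tested only because a later time was bright enough. With a common detection floor their differences were 0.21 and 0, neither called. In these comparisons with 0.5 h the share called was below that of all genes, a difference that was not tested and that turned round at 9 h with slide as a random block (63.9% of the 36 against 57%). At 6 h against 3 h, 5 fell and 0 rose (13.9%), near the 11.3% of all genes, of which 5.71% were higher and 5.58% lower, and in 11 of 13 other settings, single arrays left out not counted, the share of the calcium genes was below that of all genes. At 9 h against 6 h, 3 rose and 1 fell (11.1%), against 25.1% of all genes, 19.1% higher and 5.94% lower. At an unadjusted p under 0.05, 5, 7, 12, 8 and 11 of the 36 passed in the 5 comparisons, against 36.3, 29.3, 44.2, 27.2 and 37.5% of all genes. A test for any difference over the 4 times called 9 of the 36 (25%), against 44.2% of all genes.

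**Figure D1:**
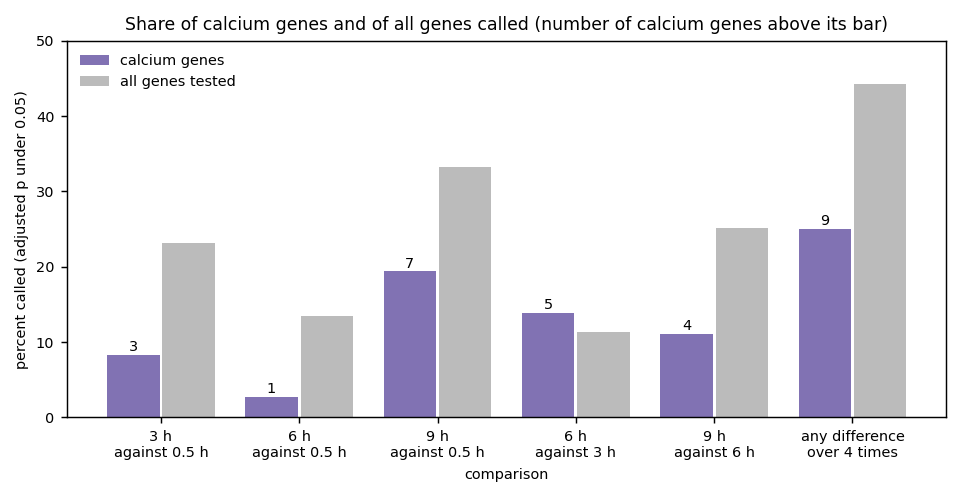
Percent of genes called (adjusted p under 0.05) in each comparison between times and in the test over all 4 times, for the 36 calcium genes beside all 29623 genes, with the number called above each bar. The bar of the calcium genes stands below that of all genes everywhere except at 6 h against 3 h, where 5 of 36 (13.9%) stood beside 11.3% in the fit reported.

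The arrays of the times compared did not overlap for 10 of the 36 genes at 3 h against 0.5 h, against 41.3% of all genes, for 9 at 6 h against 0.5 h (37.2%), for 17 at 9 h against 0.5 h (48.5%), for 10 at 6 h against 3 h (36.5%) and for 11 at 9 h against 6 h (44.2%). As shares of the 36 these were 27.8, 25, 47.2, 27.8 and 30.6%. Cacna1g, Cacna1i, Cacng4, Cacng6, Cacng8 and Ryr3 were dim on all 0.5 h arrays and were tested only because a later time was bright enough. Among the 29 calcium genes well above background on all 12 arrays, 3, 1, 5, 5 and 3 were called in the same order, against 25.3%, 13.3%, 30%, 12.9% and 20.4% of the 21390 genes of that kind. The median log2 difference of the 36 was 0.11, 0.01, 0.20, -0.08 and 0.18, and that of all genes 0.03, -0.04, 0.10, -0.08 and 0.11. For the 29 it was 0.07, -0.02, 0.13, -0.07 and 0.13, and for the 21390 genes 0.02, -0.04, 0.03, -0.07 and 0.05. The median range of the 4 time means was 0.353 for the calcium genes and 0.401 for all genes. The spread between arrays of 1 time, as a median SD, was 0.164 for the calcium genes and 0.143 for all genes. The calcium genes therefore varied more between arrays of a time and less between times than the median gene did, by the size of these medians and with no test.

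**Figure D2:**
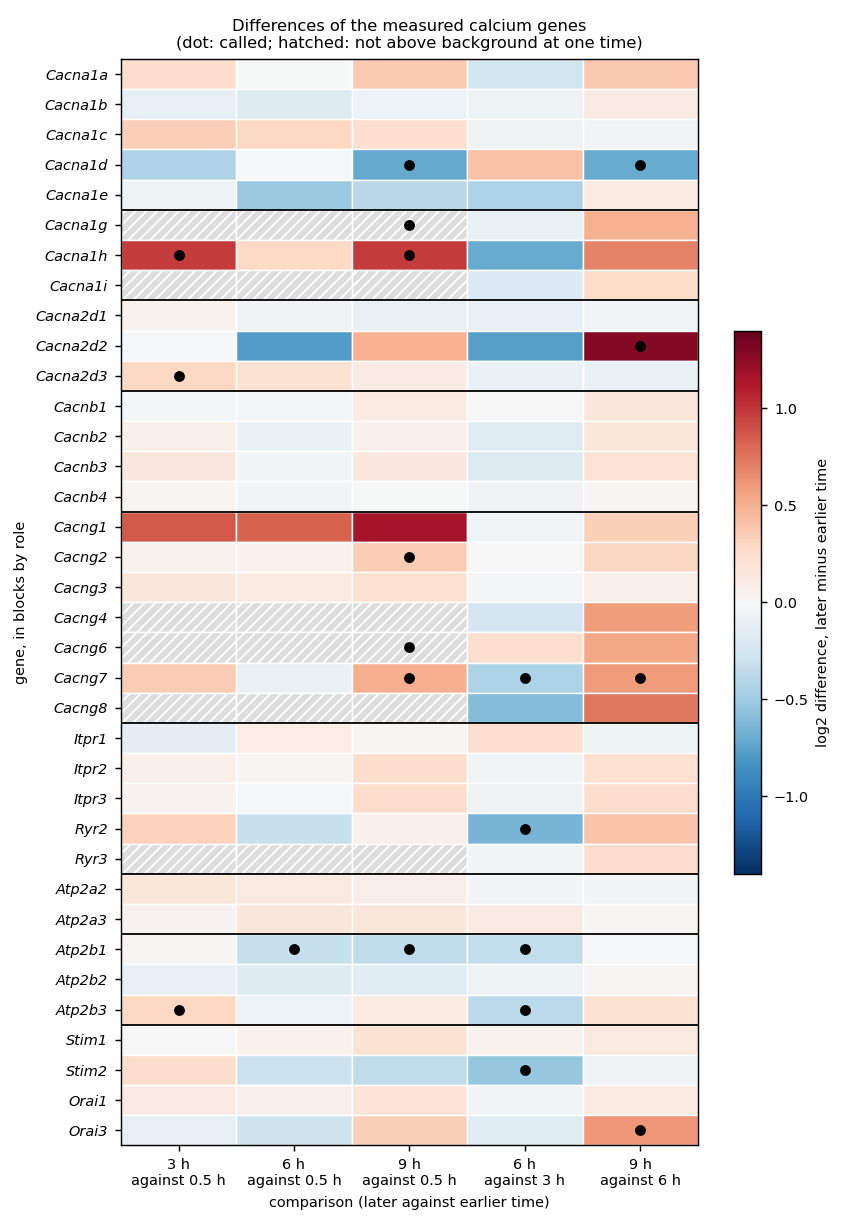
Log2 difference of the 36 calcium genes in each of 5 comparisons between times, as colour, in blocks by role. A dot marks a call and hatching a gene that was not well above background at 1 of the times compared, and most cells are pale, with 20 dots in 13 rows.

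Of the 5 high-voltage pore genes measured, only Cacna1d passed in any comparison, and it fell. Cacna1d, the pore of an L-type channel that opens at fairly negative voltages, was at -2.32, -2.51 and -2.49 at 0.5 h, -2.90, -2.94 and -2.76 at 3 h, -2.55, -2.33 and -2.49 at 6 h, and -3.57, -3.35 and -2.58 at 9 h. All 3 arrays at 9 h lay below those at 0.5 h and at 6 h, the third by little. The 9 h level passed as lower than that of 0.5 h (log2 difference -0.72, SE 0.21, adjusted p = 0.0243) and that of 6 h (log2 difference -0.70, SE 0.21, adjusted p = 0.0327). The 2 other kept probes differed from it. The first was called the opposite way at 9 h against 6 h (log2 difference 0.22, SE 0.07, adjusted p over all probes = 0.0406) and the second was 0.36 there, not called. The mean over the gene's kept probes at 9 h differed by -0.29 against 0.5 h and by -0.04 against 6 h, neither called. The call at 9 h against 0.5 h was also lost without 0.5 h array 1 or 3 or 9 h array 1 or 2 (adjusted p 0.0514 to 0.0800). The call against 6 h was lost without 9 h array 1 or 2 or any of the 6 h arrays (0.0595 to 0.100). Fitting only the arrays of the times compared ended both calls. A common detection floor or leaving out all 0.5 h arrays also ended the call against 6 h.

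The N-type pore gene Cacna1b, the target of ziconotide, was at 2.68, 2.96 and 2.76 at 0.5 h, 2.72, 2.73 and 2.58 at 3 h, 2.63, 2.61 and 2.58 at 6 h, and 2.80, 2.60 and 2.75 at 9 h. Its arrays at 6 h were all below those at 0.5 h, but no comparison passed (adjusted p 0.162 to 0.627). A dimmer probe of Cacna1b was called higher at 9 h against 6 h (log2 difference 0.89, SE 0.18, adjusted p over all probes = 0.00514), where the reported probe differed by 0.11. Cacna1c, the widely expressed L-type pore, was at 0.69, 0.03 and 0.20 at 0.5 h, 0.56, 0.78 and 0.62 at 3 h, 0.69, 0.55 and 0.52 at 6 h, and 0.70, 0.61 and 0.30 at 9 h. Of its 0.5 h arrays 2 lay below all later ones and 1 near the highest, and its largest difference was 0.35 at 3 h against 0.5 h (95% interval -0.02 to 0.71). Cacna1a, the P/Q-type pore, lay between -4.38 and -3.69, and Cacna1e, the R-type pore, between -4.25 and -1.96, with its highest value on 9 h array 3 and its lowest on 9 h array 1. Neither passed in any comparison. For Cacna1e, another probe was called higher at 9 h against 6 h (log2 difference 0.99, SE 0.17, adjusted p over all probes = 0.00174).

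Among the 3 T-type pore genes, which open near resting voltage, Cacna1h rose. Cacna1h, the main T-type pore of sensory neurons, was at -3.22, -3.63 and -3.92 at 0.5 h, -2.70, -2.70 and -2.42 at 3 h, -3.51, -2.95 and -3.47 at 6 h, and -3.07, -2.84 and -1.92 at 9 h. All arrays at 3 h and all at 9 h lay above all at 0.5 h, while 6 h overlapped with 0.5 h. The gene was 1.98-fold higher at 3 h than at 0.5 h (log2 difference 0.98, SE 0.29, adjusted p = 0.0374). At 9 h it was as much higher (log2 difference 0.98, SE 0.29, adjusted p = 0.0286). The 9 h value rested in part on array 3: without it the log2 difference was 0.63 and was not called. At 9 h the call was also lost without 0.5 h array 2 or 3 (adjusted p 0.0703 to 0.0950 over the 3 settings). At 3 h it was lost without 0.5 h array 2 or 3, any 3 h array or 6 h array 3 (0.0508 to 0.116).

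Cacna1g was dim on all 0.5 h arrays, so no fold is given. It was at -5.80, -6.15 and -6.09 at 0.5 h, -5.34, -5.66 and -5.17 at 3 h, -5.75, -5.22 and -5.50 at 6 h, and -5.62, -5.30 and -4.06 at 9 h, highest on 9 h array 3. The 9 h against 0.5 h difference passed (adjusted p = 0.0435), and the call was lost without any 1 of 11 of the 12 arrays, all but 9 h array 1 (adjusted p 0.0521 to 0.108). Cacna1i, also dim at 0.5 h, lay between -6.66 and -5.03 and passed in no comparison. On 9 h array 3 Cacna1d, Cacna1e, Cacna1g, Cacna1h and Cacng8 all stood above the other 2 arrays of that time. Other genes, such as Cacna2d2, did so by smaller margins.

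Of the alpha2delta genes, 2 of 3 measured passed in 1 comparison each, and Cacna2d1 in none. Cacna2d1 encodes the subunit that gabapentin and pregabalin bind. It was at 4.63, 4.74 and 4.76 at 0.5 h, 4.88, 4.88 and 4.54 at 3 h, 4.65, 4.79 and 4.52 at 6 h, and 4.64, 4.52 and 4.67 at 9 h. The times overlapped throughout, and relative to 0.5 h its difference was 0.05 (95% interval -0.19 to 0.29) at 3 h and -0.10 (95% interval -0.34 to 0.13) at 9 h. Cacna2d3, a relative needed for normal nociception in mice and flies, was at 0.89, 0.97 and 0.87 at 0.5 h, 1.12, 1.16 and 1.32 at 3 h, 1.16, 1.13 and 1.03 at 6 h, and 1.14, 0.89 and 1.04 at 9 h. All its 3 h arrays lay above all 0.5 h arrays, and it was 1.23-fold higher at 3 h (log2 difference 0.30, SE 0.08, adjusted p = 0.0273). That call was lost without 0.5 h array 1 or 3 or 3 h array 3 (adjusted p 0.0688 to 0.0841).

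Cacna2d2, the other gene whose protein binds gabapentin, had the largest rise of the 36 genes at 9 h against 6 h. Its level was -5.33, -4.44 and -4.87 at 0.5 h, -4.82, -5.03 and -4.84 at 3 h, -6.25, -5.20 and -5.56 at 6 h, and -4.51, -4.47 and -4.17 at 9 h. The 9 h arrays lay above all the 6 h arrays and near the highest of 0.5 h, where the probe was well above background on 1 of 3 arrays. The rise at 9 h against 6 h was 2.44-fold (log2 difference 1.29, SE 0.27, adjusted p = 0.00625) and passed with any 1 array left out. Its size depended on the processing, at 0.82 with quantile scaling, 0.71 with capped normexp background correction and 0.32 with a common detection floor, all called. Because this rise was the largest, the 60-base probe behind it is shown, from chr8:112774715-112774774 on the plus strand of rn4:
Cacna2d2: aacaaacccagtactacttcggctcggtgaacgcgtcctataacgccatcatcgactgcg

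None of the 4 beta subunit genes passed in any comparison, and only Cacnb3 had an unadjusted p under 0.05, at the 6 h and 9 h steps. Cacnb3, the beta subunit found with N-type channels in neurons, was at 5.86, 6.09 and 5.88 at 0.5 h, 6.13, 6.02 and 6.12 at 3 h, 5.91, 5.92 and 5.87 at 6 h, and 6.11, 6.06 and 6.11 at 9 h. All 9 h arrays lay above all 6 h arrays, and the difference fell short of the threshold (log2 difference 0.19, SE 0.07, adjusted p = 0.0648). Cacnb1 lay between 1.61 and 1.87, Cacnb2 between -1.90 and -1.34 and Cacnb4 between -2.31 and -2.07 over the 12 arrays. These were narrow ranges beside those of Cacna1h or Cacna2d2.

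Of the 7 gamma family genes measured, Cacng2, Cacng6 and Cacng7 passed. Despite the name, most of this family are transmembrane regulators of AMPA-type glutamate receptors, and only Cacng1 and its near relative Cacng6 are known as subunits of muscle calcium channels. Cacng7, an AMPA receptor regulator that also affects calcium channels, had the most calls of the calcium genes with Atp2b1, 3 each. It was at -4.002, -3.91 and -3.82 at 0.5 h, -3.50, -3.77 and -3.40 at 3 h, -3.92, -3.96 and -4.11 at 6 h, and -3.34, -3.26 and -3.59 at 9 h. It alternated between times: the 3 h and 9 h arrays were all above the 0.5 h and 6 h arrays. It fell at 6 h against 3 h (log2 difference -0.44, SE 0.12, adjusted p = 0.0379). At 9 h it rose over 6 h (log2 difference 0.60, SE 0.12, adjusted p = 0.0037) and over 0.5 h (log2 difference 0.51, SE 0.12, adjusted p = 0.00846). At 3 h against 0.5 h it differed by 0.35 (adjusted p = 0.053), short of the threshold.

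The 9 h calls of Cacng7 held with any 1 array left out but depended on the processing. Against 0.5 h the difference was 0.26 with capped normexp background correction (adjusted p = 0.0983). With quantile scaling the 9 h difference was 0.32 against 0.5 h and 0.26 against 6 h. With cyclic loess scaling these were 0.20 and 0.34, and none of the 4 was called (adjusted p 0.0734 to 0.240). The fall at 6 h against 3 h was lost without 0.5 h array 2, any of the 6 h arrays or 3 h array 1 or 3 (adjusted p 0.0552 to 0.141). Its probe, shown because the gene moved in the most comparisons, lies at chr1:64114273-64114332 on the minus strand of rn4, and the probes of Cacng8 (chr1:64069079-64071811) and Cacng6 (chr1:64059043-64059102) lie near it:
Cacng7: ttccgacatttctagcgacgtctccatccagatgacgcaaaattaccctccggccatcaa

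Cacng2, the AMPA receptor regulator stargazin, was at 0.06, 0.10 and 0.01 at 0.5 h, 0.23, -0.18 and 0.27 at 3 h, 0.24, 0.08 and 0.02 at 6 h, and 0.46, 0.38 and 0.40 at 9 h. Its 9 h arrays were above all others at 0.5 and 6 h, with a rise of 1.28-fold over 0.5 h (log2 difference 0.36, SE 0.11, adjusted p = 0.0322). The call was lost without any 1 of the 0.5 h or 9 h arrays (adjusted p 0.0588 to 0.0881) and with median scaling, which put the difference at 0.24 (adjusted p = 0.124). The median over all genes was itself 0.10 at 9 h against 0.5 h, and -0.01 under median scaling. Relative to the median of all genes Cacng2 was 0.26 higher. Cacng3 lay between -2.65 and -2.14. Cacng4 and Cacng8, both dim at 0.5 h, lay between -6.58 and -5.19 and between -6.65 and -4.18, and none of the 3 passed.

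Cacng6, also dim on all 0.5 h arrays, was at -6.92, -7.16 and -6.73 at 0.5 h, -6.30, -6.32 and -6.49 at 3 h, -6.74, -5.36 and -6.31 at 6 h, and -6.16, -5.25 and -5.37 at 9 h. Its 9 h against 0.5 h difference passed (adjusted p = 0.0126), with any 1 array left out too. It was lost with a common detection floor and with capped normexp (adjusted p 1 and 0.608). Cacng1, the gamma subunit of skeletal muscle calcium channels, was at -3.56, -3.79 and -3.12 at 0.5 h, -2.20, -1.88 and -3.77 at 3 h, -3.87, -1.02 and -3.09 at 6 h, and -2.03, -2.27 and -2.67 at 9 h. It had the widest spread within times of the 36 genes and did not pass (adjusted p 0.215 to 0.974). Skeletal muscle markers were present on every array, with 17 of 17 well above background. None of the 17 was called in any comparison, and 0 had an unadjusted p under 0.05, while their median log2 difference from 0.5 h was 1.28 at 3 h, 1.33 at 6 h and 1.02 at 9 h. Their summed signal was 71.5, 53.1 and 133 at 0.5 h, 299.6, 339.8 and 62.4 at 3 h, 68.2, 615 and 166 at 6 h, and 254, 189.6 and 76.9 at 9 h. Within each of the 4 times, the order of Cacng1 over the 3 arrays was that of the muscle signal. For Cacng6 this held at 0.5 and 6 h but not at 3 and 9 h, and at 9 h its lowest value stood on the array with the most muscle signal. Summed adipocyte markers (6 of 8 measured) were 1.69 to 2.20 at 0.5 h, 1.41 to 7.36 at 3 h, 2.45 to 5.08 at 6 h and 2.29 to 7.28 at 9 h. The part of these tissues in the Cacng1 and Cacng6 values was not tested.

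**Figure D3:**
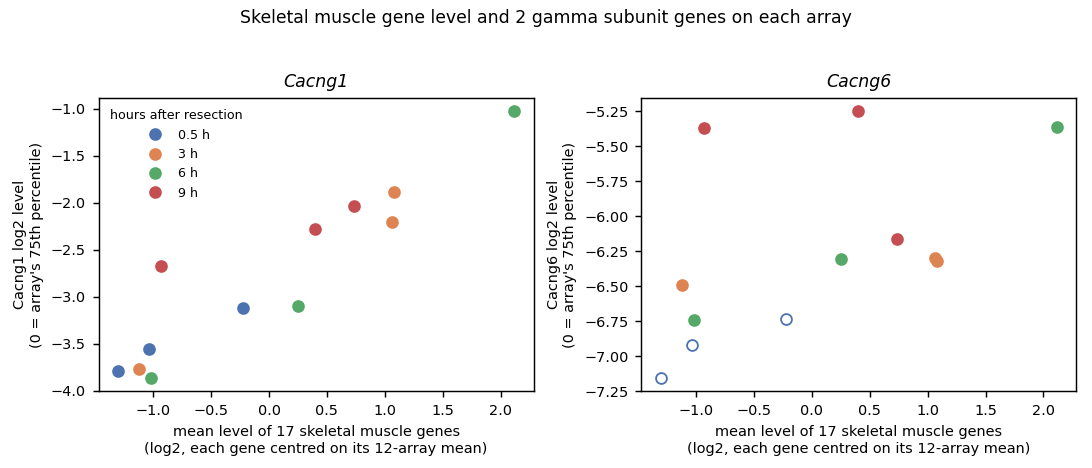
Level of Cacng1 and Cacng6 on each of the 12 arrays against the mean centred log2 level of 17 skeletal muscle genes on the same array, coloured by time, with open points where the probe was not well above background at that time. Within 6 h both levels were highest on the array with the highest muscle signal (array 2, summed signal 615).

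Of the 5 store release channels, Ryr2 alone passed, in 1 comparison. Ryr2, the ryanodine receptor of heart and brain, was at 0.18, 0.34 and 0.33 at 0.5 h, 0.69, 0.31 and 0.83 at 3 h, 0.17, -0.11 and -0.18 at 6 h, and 0.71, 0.22 and 0.14 at 9 h. All 6 h arrays lay below all 3 h arrays, and the fall passed (log2 difference -0.65, SE 0.17, adjusted p = 0.0413). The other 5 kept probes of Ryr2 were all lower at 6 h than at 3 h as well, with log2 differences of -0.20 to -0.47, and 2 of the 5 were called. The call on the reported probe was lost without any 0.5 h array, 3 h array 1 or 3, 6 h array 2 or 3, or 9 h array 2 (adjusted p 0.0529 to 0.146), and the mean over the 6 probes differed by -0.39. At 9 h against 6 h the differences varied between probes, which was not tested. The reported one was 0.40 higher and not called, while 1 other was called higher (log2 difference 0.73, SE 0.10, adjusted p over all probes = 0.000585) and another too (log2 difference 0.58, SE 0.12, adjusted p over all probes = 0.00478). The remaining probes differed by 0.24, -0.01 and -0.04, none called. The reported probe (chr17:69509270-69509329) and the probe with the largest rise at 9 h (chr17:69362896-69362955), both on the plus strand of rn4 and within the gene, are shown. Both were higher at that step, and only the second was called:
Ryr2, reported: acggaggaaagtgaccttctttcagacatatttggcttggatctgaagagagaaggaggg
Ryr2, other: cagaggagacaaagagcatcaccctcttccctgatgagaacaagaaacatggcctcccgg

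Ryr3, the ryanodine receptor found at low levels in many tissues, was at -7.05, -7.28 and -6.80 at 0.5 h, -6.69, -7.27 and -6.88 at 3 h, -6.86, -6.80 and -7.29 at 6 h, and -6.67, -7.09 and -6.41 at 9 h. It was near the lower limit of detection, well above background on 0, 1, 3 and 2 arrays of the 4 times, and no difference was called. Itpr1, the main inositol trisphosphate receptor of neurons, was at -0.72, -0.75 and -0.56 at 0.5 h, -0.81, -0.64 and -0.99 at 3 h, -0.79, -0.63 and -0.30 at 6 h, and -0.69, -0.54 and -0.70 at 9 h. Its times overlapped, and its largest difference was 0.24 at 6 h against 3 h (95% interval -0.05 to 0.53). Itpr3, a receptor of the same family, was at 1.17, 1.04 and 0.94 at 0.5 h, 1.05, 0.86 and 1.34 at 3 h, 1.10, 1.07 and 0.92 at 6 h, and 1.24, 1.36 and 1.27 at 9 h. All 9 h arrays were above all 0.5 h and 6 h arrays by small margins, and the difference at 9 h against 6 h did not pass (log2 difference 0.26, SE 0.12, adjusted p = 0.128).

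Itpr2 depended on the probe. The reported probe was at -2.96, -3.15 and -3.06 at 0.5 h, -3.23, -3.02 and -2.72 at 3 h, -3.16, -2.93 and -3.02 at 6 h, and -2.93, -2.72 and -2.77 at 9 h, and its rise at 9 h against 0.5 h did not pass (log2 difference 0.25, SE 0.12, adjusted p = 0.151). Both other kept probes were called higher at 9 h than at 0.5 h, the first with log2 difference 0.68, SE 0.10, adjusted p over all probes = 0.000817. The second, well above background on 1 of 3 arrays at 0.5 h, was higher by 0.66. The reported Itpr2 probe shares sequence with the Itpr3 probes. It matched the reported Itpr3 probe at 45 of 58 overlapping bases (77.6%) and the second at 33 of 42 (78.6%). Over 2102 pairs of probes of different calcium genes, with an overlap of at least 40 bases, the median was 39.3%, and only these 2 pairs reached 70%. How far the Itpr2 probe reads Itpr3 transcripts was not tested. In the sequences, capitals on the Itpr2 line mark bases shared with the reported Itpr3 probe, and capitals on either Itpr3 line mark bases shared with the Itpr2 probe. Itpr2 lies at chr4:183680732-183713022 (minus strand, across an intron) and the Itpr3 probes at chr20:5355438-5356361 and chr20:5355418-5356341 (plus strand, across an intron) of rn4:
Itpr2: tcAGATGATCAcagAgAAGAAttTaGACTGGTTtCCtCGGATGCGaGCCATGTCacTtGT
Itpr3, reported: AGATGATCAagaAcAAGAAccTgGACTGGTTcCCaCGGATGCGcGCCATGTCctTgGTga
Itpr3, second: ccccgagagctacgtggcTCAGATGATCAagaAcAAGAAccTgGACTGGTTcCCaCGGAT

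**Figure D4:**
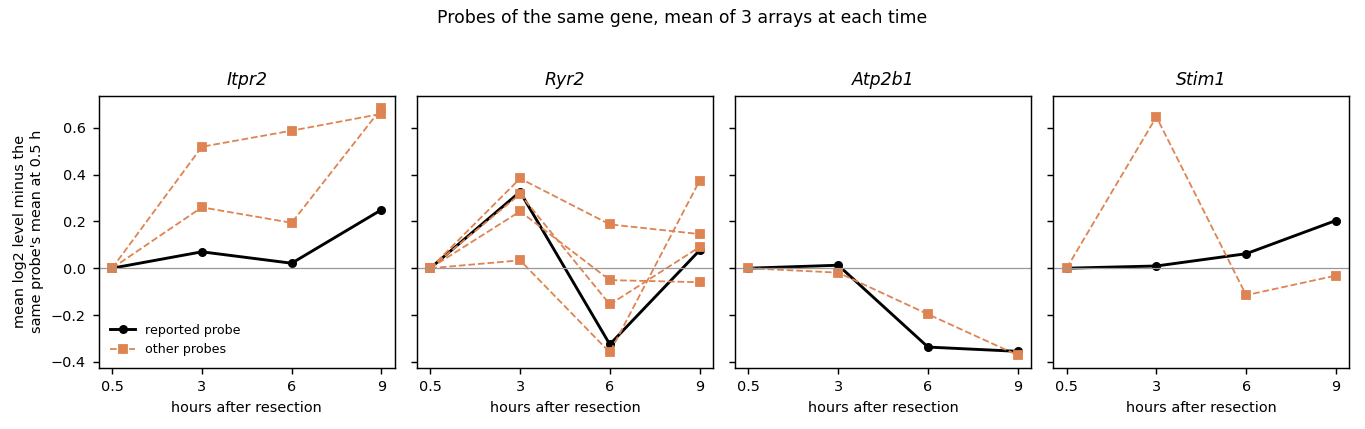
Mean log2 level of kept probes of Itpr2, Ryr2, Atp2b1 and Stim1 at 4 times, minus the same probe's mean at 0.5 h. The reported probe is in black and other probes are dashed. A kept Ryr2 probe that was dim on all 0.5 h arrays is not drawn. The probes of Atp2b1 fell together by 9 h, those of Ryr2 were all lower at 6 h than at 3 h, and the other Stim1 probe was highest at 3 h.

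Neither SERCA pump gene passed, and only Atp2a2 had an unadjusted p under 0.05, at 3 h against 0.5 h. Atp2a2, the housekeeping pump that fills the endoplasmic reticulum, was at 3.63, 3.63 and 3.60 at 0.5 h, 3.89, 3.70 and 3.80 at 3 h, 3.81, 3.72 and 3.74 at 6 h, and 3.68, 3.73 and 3.74 at 9 h. On this probe all arrays of the 3 later times lay above all 0.5 h arrays. The difference at 3 h against 0.5 h fell short of the threshold (log2 difference 0.17, SE 0.06, adjusted p = 0.0585). The 2 other kept probes of Atp2a2 went the other way there, by -0.09 and -0.16, neither called. Atp2a3, a store pump best known from blood cells, was at -0.51, -0.41 and -0.17 at 0.5 h, -0.32, -0.22 and -0.43 at 3 h, -0.45, -0.27 and 0.09 at 6 h, and -0.25, -0.16 and -0.16 at 9 h. Its arrays overlapped between times, and its largest difference was 0.17 at 9 h against 0.5 h (95% interval -0.12 to 0.47). A dimmer probe of Atp2a3 was called higher at 9 h against 6 h (log2 difference 0.84, SE 0.22, adjusted p over all probes = 0.0181).

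Of the 3 plasma membrane pump genes measured, Atp2b1 and Atp2b3 passed. Atp2b1, the pump present in nearly all cells, fell. It was at 3.35, 3.40 and 3.43 at 0.5 h, 3.50, 3.32 and 3.39 at 3 h, 2.91, 3.17 and 3.09 at 6 h, and 3.14, 2.97 and 3.00 at 9 h. All arrays at 6 and 9 h lay below all arrays at 0.5 and 3 h. At 9 h it was 0.782 times its 0.5 h level (log2 difference -0.35, SE 0.08, adjusted p = 0.00949). At 6 h it was as much lower than at 0.5 h (log2 difference -0.34, SE 0.08, adjusted p = 0.0261) and than at 3 h (log2 difference -0.35, SE 0.08, adjusted p = 0.0251). The other probe was at 2.84, 2.94 and 2.90 at 0.5 h, 2.95, 2.80 and 2.88 at 3 h, 2.70, 2.72 and 2.68 at 6 h, and 2.61, 2.50 and 2.46 at 9 h. It too was lower on every 6 and 9 h array. Its fall from 0.5 h passed at 9 h (log2 difference -0.37, SE 0.06, adjusted p over all probes = 0.00185) but not at 6 h (log2 difference -0.20, adjusted p over all probes = 0.0645).

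Both Atp2b1 probes are shown because both fell at 9 h and they lie in separate places in the gene, at chr7:36599842-36599901 for the reported probe and chr7:36558329-36558388 for the other, on the plus strand of rn4:
Atp2b1, reported: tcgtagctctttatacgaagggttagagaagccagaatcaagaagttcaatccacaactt
Atp2b1, other: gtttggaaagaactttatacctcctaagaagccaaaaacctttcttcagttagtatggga
The 9 h against 0.5 h call of Atp2b1 held with any 1 array left out. The 6 h calls did not. Against 0.5 h the call was lost without 0.5 h array 2 or 3 or 6 h array 1 or 3 (adjusted p 0.0606 to 0.0819). Against 3 h it was lost without 3 h array 1 or 3 or 6 h array 1 or 3 (0.0596 to 0.0959).

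Atp2b3, a pump largely confined to neurons, was highest at 3 h. It was at 3.23, 3.28 and 3.26 at 0.5 h, 3.69, 3.48 and 3.48 at 3 h, 3.29, 3.11 and 3.12 at 6 h, and 3.37, 3.39 and 3.40 at 9 h. All 3 h arrays lay above all others. The gene was 1.22-fold higher at 3 h than at 0.5 h (log2 difference 0.29, SE 0.07, adjusted p = 0.0185) and fell at 6 h against 3 h (log2 difference -0.38, SE 0.07, adjusted p = 0.00973). The fall held with any 1 array left out, and the rise was lost without 0.5 h array 1 or 3 h array 1 (adjusted p 0.0517 to 0.0612). Its other probe moved the same way by 0.18 and -0.21, neither called. Atp2b2, the fast pump of neurons and hair cells, was at 3.21, 3.22 and 3.23 at 0.5 h, 3.21, 3.06 and 3.04 at 3 h, 3.09, 2.97 and 3.02 at 6 h, and 3.14, 2.99 and 3.02 at 9 h. Its 0.5 h arrays were above all arrays of 3, 6 and 9 h, or level with the highest of them to 2 decimals, and it did not pass (adjusted p 0.0736 to 0.84).

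Of the 4 genes of store-operated entry, Stim2 and Orai3 passed once each. Orai3, a pore-forming relative of the channel ORAI1, was at -2.30, -1.91 and -1.85 at 0.5 h, -2.31, -2.23 and -1.90 at 3 h, -2.45, -2.19 and -2.30 at 6 h, and -1.86, -1.65 and -1.57 at 9 h. All 9 h arrays were above all 6 h arrays, and 2 of 3 also above all arrays of 0.5 and 3 h. It was 1.54-fold higher at 9 h than at 6 h (log2 difference 0.62, SE 0.15, adjusted p = 0.0116), and the call held with any 1 array left out. With median scaling the difference was 0.41 and still called. Its probe, shown because the rise held under those settings, lies at chr1:187058048-187058107 on the plus strand of rn4:
Orai3: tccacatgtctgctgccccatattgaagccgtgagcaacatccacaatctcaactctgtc

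Stim2, the sensor that responds to small losses of stored calcium, was at -0.84, -0.96 and -1.10 at 0.5 h, -0.66, -0.98 and -0.54 at 3 h, -1.29, -1.23 and -1.28 at 6 h, and -1.12, -1.42 and -1.42 at 9 h. All 6 h arrays lay below all 3 h arrays (log2 difference -0.54, SE 0.12, adjusted p = 0.0222). The 9 h level was low as well, with -0.35 against 0.5 h (adjusted p = 0.0518), short of the threshold. The fall at 6 h was lost without any of the 6 h arrays or 3 h array 1 or 3 (adjusted p 0.0547 to 0.0808). The other Stim2 probe differed by only -0.06 there. Orai1, the pore of the classical store-operated current, was at -1.72, -1.56 and -1.85 at 0.5 h, -1.58, -1.76 and -1.42 at 3 h, -1.66, -1.61 and -1.66 at 6 h, and -1.57, -1.41 and -1.58 at 9 h, with no call and a largest difference of 0.19 at 9 h against 0.5 h (95% interval -0.04 to 0.41).

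Stim1, the main sensor of store depletion, was at 2.17, 2.28 and 2.30 at 0.5 h, 2.25, 2.35 and 2.17 at 3 h, 2.24, 2.32 and 2.38 at 6 h, and 2.45, 2.35 and 2.56 at 9 h, with all 9 h arrays above all 0.5 h arrays and no call (log2 difference 0.20, SE 0.08, adjusted p = 0.0633). The other Stim1 probe followed another course, at -1.88, -1.93 and -1.85 at 0.5 h, -1.11, -1.41 and -1.20 at 3 h, -2.04, -1.82 and -2.14 at 6 h, and -1.63, -2.02 and -2.09 at 9 h. It was higher at 3 h than at 0.5 h (log2 difference 0.65, SE 0.13, adjusted p over all probes = 0.00754) and lower at 6 h than at 3 h (log2 difference -0.76, SE 0.13, adjusted p over all probes = 0.00574), where the reported probe differed by 0.01 and 0.05. Which transcripts each probe reads was not tested. The other probe, at chr1:159912013-159912072 on the plus strand of rn4, is shown for that difference:
Stim1, other: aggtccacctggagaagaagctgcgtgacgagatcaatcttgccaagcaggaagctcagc

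The 5 genes that fell at 6 h against 3 h were Cacng7, Ryr2, Atp2b1, Atp2b3 and Stim2. At the same step 1 of 15 neuronal markers was called lower and 0 higher, with a median log2 difference of -0.14 against -0.08 for all genes. Of 9 satellite glia markers 1 was called lower, with a median of -0.18, and of 8 endothelial markers 2, with a median of -0.22. Of all genes, 5.58% were called lower and 5.71% higher. The median of 8 neutrophil markers was 0.95, with 0 called, and that of 6 lymphocyte markers 0.48, with 1 called higher. At 9 h against 6 h, 3 of 15 neuronal markers were called higher and 0 lower, with a median of 0.14 against 0.11 for all genes. Of all genes, 19.1% were called higher and 5.94% lower at that step. There 3 of 8 endothelial markers were called higher, and their mean level, centred over the arrays, was 0.17 to 0.40 at 9 h against -0.30 to -0.11 at 6 h. For satellite glia it was -0.02 to 0.11 at 9 h against -0.16 to -0.10 at 6 h, with 1 of 9 called higher. The summed neutrophil signal was 4.64 to 6.53 at 9 h against 3.94, 3.44 and 19.2 at 6 h. The part of cell composition in these values was not tested.

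Calls that single arrays did not end could still depend on other settings. Plain normexp background correction ended all 20 calls. The effect of a block for replicate number is given with the processing alternatives. In every setting tried but plain normexp, the calls of Atp2b1 at 9 h against 0.5 h and of Orai3 at 9 h against 6 h held. The call of Cacna2d2 at 9 h against 6 h held wherever it was tested but in plain normexp. The setting with only genes well above background on all arrays left Cacna2d2 out. Leaving aside plain normexp and the block, fitting only the arrays of the times compared ended the calls of Cacna2d3 (adjusted p = 0.0606) and Atp2b3 (0.0655) at 3 h against 0.5 h and of Atp2b3 (0.0584) at the step to 6 h. The call of Cacna1h was lost with a common floor at 3 h (adjusted p = 0.0578), and at 9 h with that floor, capped normexp or only the compared times (0.0501 to 0.0898). Ryr2 at 6 h lost its call in 6 settings (0.0537 to 0.0743) and Cacng7 at 6 h in 7 (0.0504 to 0.117). Atp2b1 at 6 h lost it in 2 settings against 0.5 h (0.0673 to 0.0760) and in 4 against 3 h (0.0519 to 0.0740). With the mean of its kept probes Stim2 differed by -0.30 at 6 h against 3 h (adjusted p = 0.116).

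Other genes of calcium signalling were counted from lists by role, beside the shares of all genes called against 0.5 h of 23.2% at 3 h, 13.4% at 6 h and 33.3% at 9 h. Several list genes counted as higher at 9 h than at 0.5 h, Stac2, Plcb2, Hpcal4, Slc24a1 and Slc8a2, were dim on all 0.5 h arrays and passed the filter only through later times. Of 20 modulators of voltage-gated channels, 4 rose and 2 fell at 3 h, 2 rose and 1 fell at 6 h, and 6 rose and 2 fell at 9 h, each against 0.5 h. The medians were 0.14, 0.01 and 0.17, against 0.03, -0.04 and 0.10 for all genes. At 9 h against 6 h 4 rose, beside 19.1% of all genes called higher, with a median of 0.20 against 0.11. Gem, a small GTPase that inhibits high-voltage calcium channels, was at -3.10, -1.74 and -2.82 at 0.5 h, -5.58, -5.17 and -5.19 at 3 h, -5.62, -5.60 and -5.71 at 6 h, and -5.33, -5.24 and -4.75 at 9 h. It was low on every array after 0.5 h. Relative to 0.5 h it fell at 3 h (log2 difference -2.76, SE 0.31, adjusted p = 0.000289), 6 h (log2 difference -3.09, SE 0.31, adjusted p = 0.000982) and 9 h (log2 difference -2.56, SE 0.31, adjusted p = 0.000354). These were larger log2 differences than any of the 36 channel and pump genes had. Stac2, an adaptor of L-type channels, rose at 9 h against 6 h (log2 difference 1.39, SE 0.28, adjusted p = 0.00449). Stx1a, the release machinery's syntaxin, rose at 9 h against 0.5 h (log2 difference 0.70, SE 0.10, adjusted p = 0.000914), and Rims1, an active zone protein, fell at 3 h against 0.5 h (log2 difference -0.60, SE 0.17, adjusted p = 0.0329).

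Of 23 calmodulin, calcineurin and calcium-dependent kinase genes, 4 rose and 1 fell at 9 h against 0.5 h, where 22.4% of all genes were called higher and 10.9% lower, with a median of 0.08. At most 2 rose in any other comparison. Camk2a, a main calcium-dependent kinase of neurons, was 0.73 higher at 9 h than at 0.5 h (adjusted p = 0.00524), and Ppp3r1, the regulatory subunit of calcineurin, 0.47 higher at 3 h (adjusted p = 0.0124). Nfatc4, a transcription factor that calcineurin activates, was 0.66 higher at 6 h than at 3 h (adjusted p = 0.026). Of 19 phospholipase C and G protein genes upstream of inositol trisphosphate, 6 rose, Plcb2 among them, and 2 fell at 9 h against 0.5 h, beside 33.3% of all genes called, with a median of 0.19 against 0.10 for all genes. Itpkc, a kinase that converts inositol trisphosphate to its next phosphate, was 0.79 higher (adjusted p = 0.00115), and Gna15, a Gq-class G protein, 0.73 higher (adjusted p = 0.0367). Plch2, a phospholipase C of neurons, differed by -0.73 at 3 h against 0.5 h (adjusted p = 0.00244).

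Of 26 store partners and calcium-binding proteins of the endoplasmic reticulum, 5 rose at 9 h against 6 h, a share near the 19.1% of all genes called higher, with a median of 0.05. Against 0.5 h, 4 rose and 2 fell at 9 h, beside 33.3% of all genes, also with a median of 0.05. Genes known from muscle had the largest rises of this list. Jph2, which ties the reticulum to the surface membrane, was 1.08 higher at 9 h than at 6 h (adjusted p = 0.00861). Sln, an inhibitor of SERCA, was 0.94 higher there (adjusted p = 0.000613). Casq2, a store buffer of heart, was 0.86 higher at 9 h than at 0.5 h (adjusted p = 0.014). Pln, the SERCA inhibitor phospholamban, fell at 3 h against 0.5 h (-0.74, adjusted p = 0.00513). The muscle signal given with Cacng1 was 53.1 to 133 at 0.5 h, 68.2 to 615 at 6 h and 76.9 to 254 at 9 h, and its part in these rises was not tested.

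Of 18 cytosolic calcium buffers, 4 rose, Hpcal4 among them, and 2 fell at 9 h against 0.5 h, beside 33.3% of all genes called, with a median of 0.02. S100b, a calcium-binding protein of glia, changed direction at each step. It differed by -1.03 at 3 h against 0.5 h (adjusted p = 0.000128) and by 1.10 at the step to 6 h (adjusted p = 0.000115). At 9 h against 6 h it differed by -0.97 (adjusted p = 8.32e-05). The summed signal of 9 Schwann cell markers, S100b among them, was 374 to 481 at 0.5 h and 325 to 362 at 3 h. At 6 h it was 314 to 339, and at 9 h 350 to 392. Their median log2 difference at 6 h against 3 h was -0.01. The part of Schwann cell content in the S100b values was not tested. Necab2, a neuronal calcium-binding protein, was 0.71 higher at 9 h than at 6 h (adjusted p = 0.00313), and the neuronal calcium sensor Hpcal1 0.46 higher at 9 h than at 0.5 h (adjusted p = 0.0076). Of 17 exchanger and mitochondrial uptake genes, 0 rose and 2 fell at 6 h, and 3 rose and 3 fell at 9 h, each against 0.5 h, with medians of -0.18 and -0.09. These stand beside 13.4 and 33.3% of all genes, and Slc24a1 and Slc8a2 are among the 3 that rose. Vdac1, the channel of the outer mitochondrial membrane, was lowest relative to 0.5 h at 6 h (-0.60, adjusted p = 0.00296), and Slc24a5, an exchanger known from pigment cells, differed by -0.61 at 3 h against 0.5 h (adjusted p = 0.00348).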

How the data were processed

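Per the labels' protocols, Trizol and RNeasy columns gave total RNA of the ganglia, a low-input kit amplified it and added the dye Cy3, and it was hybridised to 1-colour Agilent arrays. The deposited values are intensity values per spot, background-subtracted by Agilent Feature Extraction 10.5.1.1 per the file headers, with 45018 spots of which 1639 are controls. The series-wide file of the authors gives the same intensity values (largest difference 0). Coordinates are those of the files, on rn4 (RGSC v3.4). Probe sequences are those of the scanner files, and current symbols were checked against RefSeq (GRCr8), where all 40 genes matched.

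Control spots and 76 to 218 outlier spots per array were left out, and 0 spots were saturated. Intensities were scaled to each array's 75th percentile and taken as log2, spots of 1 probe were averaged, and 34837 of 41012 probes passed the filter on dim probes. A mean per time was fitted over all 12 arrays and 29623 genes with limma 3.58.1 (R 4.3.3, files read by data.table at version 1.17.8), with Benjamini-Hochberg adjustment within each comparison. Other probes were judged in the same fit over all kept probes. Intervals are 95% intervals of the fit. The fit was tested on simulated data with independent noise and no effect of slide or scan day. That test therefore says nothing about slide or scan day in these arrays. Precision is limited by having 3 arrays per time. Where a probe was dim on all 0.5 h arrays, no fold is given.

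The genes, lists and tests were chosen with earlier results of these data known. Values on every array are given for called genes and for 14 genes of interest whatever their result. List genes with values were picked among those called. Most had large differences, but some with larger ones, such as Camk2n2, Plcb2 and Slc8a2, are left without values. Alternatives were other background corrections, scalings and probe rules, other filters or a floor at the detection limit, replicate number or slide as a block, fewer arrays, and leaving out each array. Normexp with capped local background and the fit without 0.5 h arrays were chosen after seeing the data.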

Additional observations from a re-analysis of the deposited data

How the results depend on the processing

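Counts of called calcium genes are given in the order 3, 6 and 9 h against 0.5 h, 6 h against 3 h, 9 h against 6 h and any difference, where the values reported were 3, 1, 7, 5, 4 and 9. The share of all genes with any difference was taken only in the fit reported (44.2%). Normexp background correction gave 0 in each (at 9 h, 1.47% of all genes called against 0.5 h and 0.56% against 6 h). There, 6 h array 3 and 9 h arrays 1 and 3 had 5, 4 and 1 spots with a local background over 10 times the array's median, and their fitted background means were -492, -653 and -29.0. With the local background capped, chosen after seeing the data, the counts were 5, 3, 5, 4, 5 and 12. Of all genes, 28.2, 22.7, 26, 12.2 and 26.1% were called in the 5 comparisons. Median scaling gave 5, 2, 7, 3, 6 and 10, with 25.7, 13.6, 31.7, 8.96 and 32.6% of all genes in the 5 comparisons. Quantile scaling gave 6, 3, 8, 3, 3 and 7 (24, 13.1, 31.9, 9.55 and 23.2%) and cyclic loess scaling 8, 5, 11, 3, 4 and 8 (30.2, 22, 37.1, 10.3 and 22.6%). With no filter the counts were 6, 3, 7, 3, 6 and 11 of 40 genes (33, 25.6, 36.9, 7.99 and 28.3% of all genes). With only genes well above background on all arrays they were 5, 1, 6, 5, 3 and 9 of 29. Of all genes tested there, 29.3, 16.1, 31.7, 16.4 and 21.1% were called. A common floor gave 3, 1, 5, 4, 4 and 6, and the mean of a gene's kept probes 5, 1, 9, 4, 6 and 11. With only the 2 times compared the counts were 4, 0, 5, 2 and 5 (15.3, 8.45, 26.3, 9.54 and 23.7% of all genes). Without the 0.5 h arrays 2 genes were called at 6 h against 3 h (9.4% of all genes). At 9 h against 6 h 4 were (24.9%). Slide as a random block gave 14, 7, 23, 8, 13 and 23, with a consensus correlation of -0.257 that rests on the 6 h slides alone, and 47.8, 30.8, 57, 28.8 and 42.3% of all genes. As shares of the 36 these were 38.9, 19.4, 63.9, 22.2 and 36.1%. Over the settings other than single arrays left out, the share of the calcium genes was below that of all genes in 12 of 12 at 3 h and at 6 h, and in 11 of 12 at 9 h, each against 0.5 h, in 11 of 13 at 6 h against 3 h, and in 13 of 13 at 9 h against 6 h. Leaving out 1 array gave 1 to 7, 0 to 3, 3 to 9, 1 to 6, 3 to 6 and 5 to 11. Of all genes, 15.2 to 23.2, 7.38 to 13.8, 25.9 to 34.1, 5.53 to 11.5 and 18.2 to 26.3% were called in the 5 comparisons. The causes were not tested.

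With replicate number as a block the counts were 1, 0, 7, 2, 4 and 7. Of all genes, 19.5, 11.1, 30, 8.7 and 22.6% were called in the comparisons between times. The block ended 7 of the 20 calls: Cacna1h at 3 h (adjusted p = 0.0659) and 9 h (0.0513), Cacna2d3 at 3 h (0.0555) and Atp2b1 at 6 h (0.0570), each against 0.5 h, and Cacng7 (0.0774), Ryr2 (0.0520) and Atp2b1 (0.0588) at 6 h against 3 h. Same-numbered arrays of different times had deviations correlated at -0.133 to 0.223, across genes, and 3 of 18 pairs were over 0.1. Differently numbered arrays were correlated at -0.230 to 0.199, with 4 of 36 pairs over 0.1. The medians were 0.02 and -0.02. Whether the numbers pair the arrays cannot be told from these correlations.

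No call changed direction under these settings, except that Cacng7 at 6 h against 3 h was 0.23 with normexp, not called. Of the 20 calls, 15 kept with capped normexp, 15 each with median and quantile scaling, 16 with cyclic loess, 14 with the floor, 16 with the probe mean and 13 with the replicate block. With normexp Cacna1d differed by -0.04 at 9 h against 0.5 h. The call of Cacna1g at 9 h was lost in 5 further settings (adjusted p 0.0544 to 0.487). Scaling also moved the split over all called genes: 67.4% were higher at 9 h against 0.5 h, against 45.7% with median, 51.3% with quantile and 57.4% with cyclic loess scaling, and 76.3% at 9 h against 6 h, against 36.9%, 46.9% and 55.4%. At 6 h against 0.5 h the split was 29.8%, against 56.5%, 52.7% and 54.3%, at 3 h 46.2%, against 62.8%, 55% and 49.8%, and at 6 h against 3 h 50.6%, against 61.6%, 58.2% and 68.4%.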
